A study of Mus musculus with 16 samples.

Results

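Liver from offspring of unexposed dams was compared with a universal mouse reference RNA on the 7 arrays titled Control, out of 16 arrays in the series. The arrays were chosen by title alone, so no expression value entered the choice. The series asks what inhaled nano-sized titanium dioxide (UV-Titan) in pregnant C57BL/6BomTac mice does to the livers of their offspring. The dams behind these 7 livers were kept in filtered clean air, 1 hour daily from gestation day 8 until day 18, and the remaining 9 arrays, from exposed litters, were not used here. The controls comprised 4 males (replicates 31, 33, 41 and 43) and 3 females (replicates 25, 35 and 40), all of the same strain and with no engineered allele. Offspring were taken either as newborns on postnatal day 2 or at weaning on postnatal days 23 to 24, and neither the age of a liver nor its litter is given by sample. Male and female samples may therefore be littermates. Each sample is labelled as a separate animal, and p-values measure the spread between these 7 livers and their arrays.

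Total RNA from random sections of whole liver (200 ng) was labelled for the red channel, and the purchased reference, RNA pooled by its supplier from several mouse cell lines, for the green channel. Both were hybridised to the same 2-colour Agilent array, so each array gives liver over reference for every probe. The label fields name the dyes the other way round from the labelling protocol. The liver markers were bright in red on all 7 arrays, with a median log2 red over green of 4.66 to 5.61 over plasma protein and coagulation genes, and Xist and Ddx3y followed the labelled sex in red, so red was taken as liver. No array was dye-swapped, and a dye effect cannot be told apart from liver content. Between 57.7% and 66.7% of spots were well above background in the liver channel and 62.7% to 69.0% in the reference channel, no spot was saturated, and 92 to 135 spots per array were left out as outliers. Pairs of arrays correlated at 0.969 to 0.987 across genes.

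The liver changes its work several times around birth. Before birth it is a blood-forming organ, and its hepatocytes secrete alpha-fetoprotein and express imprinted growth genes. After birth blood formation moves to bone marrow and spleen, enzymes of drug and amino acid metabolism appear, and milk fat makes fat oxidation, ketone production and glucose synthesis the main tasks. At weaning a carbohydrate diet brings on sugar use and fat synthesis, and sexual maturation later separates male from female liver by growth hormone pattern. Cultured cell lines, the source of the reference, divide quickly, rely on glycolysis and make cytoskeleton and matrix.

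The 250 bases upstream of 4 genes are shown because they include liver markers (albumin, alpha-fetoprotein and apolipoprotein A-I) and S100a4, the lowest gene measured in both channels. All lie on the plus strand just before the RefSeq start (build GRCm38.p6). Capitals mark matches on either strand to the letters GTTAATNAT, a motif of liver promoters, or to TATAAA, where the general transcription machinery binds. These motifs do not overlap each other. The windows are chr5:90460620-90460869 for Alb, chr5:90490464-90490713 for Afp, chr9:46228380-46228629 for Apoa1 and chr3:90603520-90603769 for S100a4.
Alb: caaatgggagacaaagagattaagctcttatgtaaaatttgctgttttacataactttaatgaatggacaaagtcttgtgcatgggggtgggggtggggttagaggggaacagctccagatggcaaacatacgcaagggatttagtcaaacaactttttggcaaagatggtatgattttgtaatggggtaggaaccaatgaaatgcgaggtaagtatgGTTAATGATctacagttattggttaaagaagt
Afp: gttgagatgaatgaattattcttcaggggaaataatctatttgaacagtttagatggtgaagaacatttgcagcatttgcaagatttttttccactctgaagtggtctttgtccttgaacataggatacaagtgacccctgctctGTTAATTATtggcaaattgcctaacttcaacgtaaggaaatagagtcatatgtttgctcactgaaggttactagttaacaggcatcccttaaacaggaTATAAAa
Apoa1: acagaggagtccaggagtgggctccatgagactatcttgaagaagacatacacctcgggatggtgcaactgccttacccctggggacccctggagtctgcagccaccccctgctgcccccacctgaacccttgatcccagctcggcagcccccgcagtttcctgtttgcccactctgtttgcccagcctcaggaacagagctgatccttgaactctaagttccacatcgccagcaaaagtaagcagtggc
S100a4: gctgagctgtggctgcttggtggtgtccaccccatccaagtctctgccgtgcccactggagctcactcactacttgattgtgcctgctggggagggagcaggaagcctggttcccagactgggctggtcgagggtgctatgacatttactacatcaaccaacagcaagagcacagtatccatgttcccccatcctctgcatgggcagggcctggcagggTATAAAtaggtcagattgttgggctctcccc

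GTTAATNAT begins 32 bases before the Alb start and 105 bases before the Afp start, and TATAAA begins 7 bases before the listed Afp start and 31 before that of S100a4. Of 1989 listed promoters of genes called higher in liver, 41 held GTTAATNAT in this window (2.06%), against 1 of 1171 promoters of genes called lower (0.0854%) and 87 of 15214 promoters of all tested genes with a match (0.572%). Over all 32851 promoters of the table the share was 0.737%. Among 75 promoters of the tested plasma carrier, apolipoprotein, coagulation and complement genes, 8 held it (10.7%). TATAAA was in 11.5% of promoters of genes called higher, 8.37% of those called lower, 7.95% of those of tested genes, 17.3% of those of the secreted protein genes and 12.4% of all promoters. A match is a run of letters in a window, and binding was not measured.

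Across 18691 genes tested, 2202 were called higher in liver than in reference (11.8% of genes tested) and 1336 were called lower (7.15%). A call required limma's treat test against a 2-fold change at a Benjamini-Hochberg adjusted p of 0.05 over all genes, and all 3538 called genes had the same sign on all 7 arrays. The liver side reached further: 360 genes had a mean ratio over 16-fold higher and 16 over 16-fold lower, and 60 against 1 passed 64-fold. Higher calls made up 62.2% of calls, against 51.9% when the authors' value table was used and 51.3% with the scanner's processed signals. Those settings moved the median over all genes from 0.02 to -0.10 and -0.11 log2. In 14813 genes both channels were well above background on every array, while 266 genes were so in liver on all 7 arrays with no probe above background in reference, and 363 were the reverse.

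**Figure D1:**
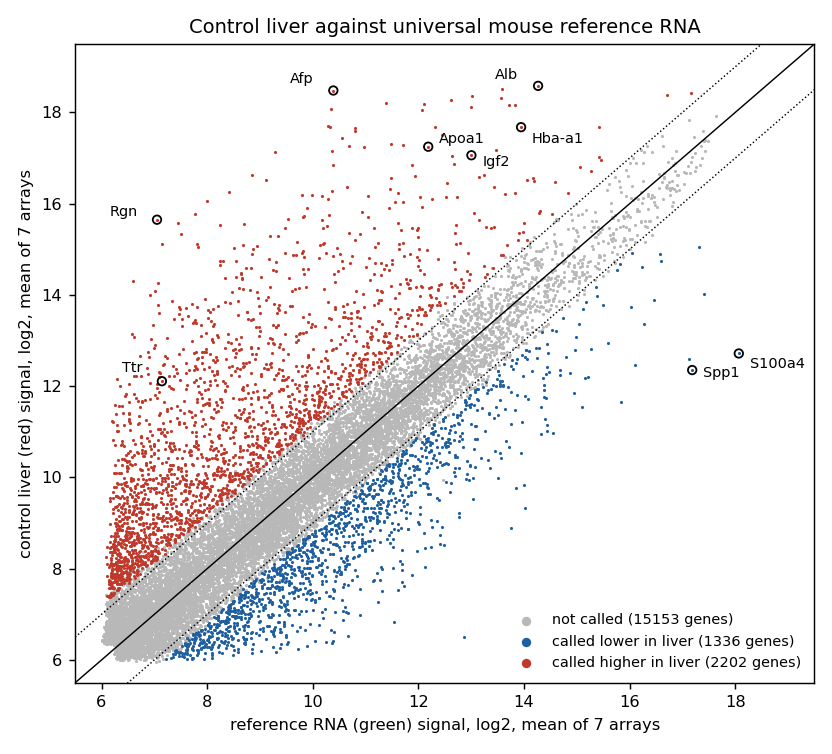
Mean log2 signal of each gene in control liver (vertical axis, red channel) against the reference RNA (horizontal axis, green channel) over 7 arrays. Each point is 1 of 18691 genes, the solid line is equality and the dotted lines are a 2-fold difference. The 2202 red genes spread further from the line than the 1336 blue genes, and circles mark genes named in the text.

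The liver markers were far above the reference in every liver. Alpha-fetoprotein (Afp), the main plasma protein of fetal liver, had log2 ratios of 6.98, 7.75 and 7.64 in the 3 females and 9.00, 8.62, 8.49 and 8.15 in males 31, 33, 41 and 43 (mean 8.09 ± 0.69, SD, n = 7; limma treat adjusted p = 1.33e-10). Albumin (Alb), the most abundant plasma protein after birth, had 3.63, 3.76 and 3.71 in females and 5.39, 4.54, 4.74 and 4.44 in males (mean 4.32 ± 0.65; adjusted p = 5.17e-08). Male and female ratios did not overlap for either gene, with male 31 highest and female 25 lowest. Male minus female did not pass limma's moderated test (adjusted p = 0.32 for Afp and 0.26 for Alb). By channel, male minus female was 0.10 in liver and -1.02 in the reference for Afp, and -0.06 and -1.13 for Alb. Apolipoprotein A-I (Apoa1), the core protein of high-density lipoprotein, ranged from 4.68 to 5.75 (mean 5.06 ± 0.38), and transthyretin (Ttr), which carries thyroid hormone, from 4.42 to 5.35 (mean 4.97 ± 0.32). All 4 liver markers were above the reference on all 7 arrays.

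For Alb and Afp the spread between arrays lay mostly in the reference channel. The liver signal of Alb varied by an SD of 0.12 log2 over the 7 arrays and the reference signal by 0.64, although every array carried the same purchased RNA. The pair of values was 0.17 and 0.60 for Afp, while Ttr varied in both channels (0.35 and 0.41). Over plasma carrier genes the median SD was 0.15 in liver and 0.35 in reference, against 0.17 and 0.10 over all genes tested. What moved the green signal of genes bright in red was not tested. An offset added in background correction also compresses large ratios, so the folds here depend on the processing more than their signs do.

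The 15 largest ratios among genes measured in both channels on all arrays ranged from 7.31 to 8.60. Regucalcin (Rgn), a calcium-binding liver protein and enzyme of vitamin C synthesis, led with a mean of 8.60 ± 0.19 and a range of 8.28 to 8.84. Cyp3a41a, a steroid and drug hydroxylase, followed at 8.13 ± 0.25. It belongs to a family of near-identical genes, and which copy its probe reads is uncertain. Complement factor I (Cfi) stood at 8.06 ± 0.48, arylacetamide deacetylase (Aadac) at 8.02 ± 0.33 and the steroid dehydrogenase Akr1c6 at 7.97 ± 0.24. Next came Apoh, a plasma glycoprotein that binds phospholipid (7.85 ± 0.52), Cyp4a14, a fatty acid hydroxylase (7.83 ± 0.23), and Slco1b2, an uptake transporter for bile acids and bilirubin (7.82 ± 0.19).

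The rest of the 15 were the cystatin-like Cstdc6 (7.78), the plasma protein precursor Ambp (7.73), the fatty acid carrier Fabp1 (7.42), the amylase Amy1 (7.41), the fibrinogen chain Fgg (7.36) and protein Z (Proz, 7.31). Amy1 shares most of its sequence with pancreatic amylase, and its 2 probes read 6.15 and 7.41. For genes with several tested probes the brightest stood for the gene, and other probes could read far less: 3.20 to 7.31 for Proz, 2.02 to 6.56 for Hemgn, 1.25 to 4.01 for Hnf4a and -3.65 to -0.27 for Vim.

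Some liver genes could be given only a lower bound, because no probe was above background in the reference on any array. The fatty acid thioesterase Acot12 was at least 34.6-fold higher, the sulfotransferase Sult1d1 at least 32.2-fold and the glucuronosyltransferase Ugt2b35 at least 21.8-fold. Kynureninase (Kynu), which degrades tryptophan, was at least 10.8-fold higher and Rgs18, a signalling regulator of platelets and their precursors, at least 10.1-fold. The leptin receptor Lepr was at least 8.42-fold higher, the creatine transporter Slc16a12 at least 7.86-fold, and the unstudied 5430401H09Rik at least 9.68-fold. The floor for these bounds was, on each array, the dimmest green signal among probes well above background. Where the gene's own green signal was brighter than that floor, its own signal was used.

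Secreted liver proteins were high almost throughout. Of 27 tested plasma carrier genes 25 were called higher, with a median log2 ratio of 5.12, against 11.8% of all genes and an all-gene median of 0.02. Afp and Ambp led, followed by Itih3, a hyaluronan-binding protease inhibitor (6.78 ± 0.46), Rbp4, the retinol carrier (6.08 ± 0.46), and the antitrypsin Serpina1b (6.00 ± 0.58, in a family of near copies). The exceptions, named after their values were seen, were the acute-phase genes Orm1 and Orm2, at 0.21 ± 0.15 and 0.24 ± 0.11 and above background in liver on 4 of 7 arrays and in reference on at most 1. Orm1 was called with scanner processed signals (1.87). Adult liver makes Orm1 and Orm2 in quantity during inflammation.

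Coagulation factors were called higher in 19 of 20 genes, with a median of 5.01. Besides Fgg and Proz, antithrombin (Serpinc1) had 6.79 ± 0.50, prothrombin (F2) 6.58 ± 0.37 and the factor XIII subunit F13b 6.47 ± 0.23. Protein S (Pros1), also made by endothelium, was the exception at 0.94 ± 0.13. Apolipoproteins and lipid export genes were called higher in 15 of 16, with a median of 4.80. Apoc1 stood at 5.98 ± 0.47, Apoe at 5.34 ± 0.49, Apob at 5.30 ± 0.28 and Apoa5, which activates lipoprotein lipase, at 5.25 ± 0.29, while the phospholipid transfer protein Pltp was level with the reference (-0.03 ± 0.05). Complement was called higher in 17 of 19, with a median of 4.43. After Cfi came C5 (listed as Hc, 6.41 ± 0.39), the mannose-binding lectin Mbl2 (6.11 ± 0.30), C8a (5.87 ± 0.18) and C4bp (5.23 ± 0.47). C9, the last component of the membrane attack complex, had 0.40 ± 0.20 and was called with scanner processed signals (2.44).

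Enzymes of the urea cycle and amino acid breakdown were called higher in 24 of 29, with a median of 4.33. Carbamoyl-phosphate synthase (Cps1), the entry to the urea cycle, ranged from 6.74 to 7.51 with a median of 7.08. Mat1a, which makes S-adenosylmethionine, had 6.05 ± 0.36, Agxt 5.91 ± 0.30 and the lysine-degrading Aass 5.73 ± 0.38. The 5 that were not called were Tdo2 (0.37), Gpt (0.19), Got1 (-0.05), Oat (-0.51) and Prodh (-0.53). Tdo2, tryptophan dioxygenase, is a late-onset liver enzyme, and alanine and aspartate aminotransferases and Oat work in many tissues.

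Glucose metabolism genes were called higher in 13 of 14, with a median of 4.19. The gluconeogenic enzymes Fbp1 (6.84 ± 0.52) and Pck1 (6.53 ± 0.49) led, with the glucose transporter Slc2a2 (5.87 ± 0.12, reference above background on 2 of 7 arrays) and liver glycogen synthase Gys2 (5.61 ± 0.38). Bile acid genes were called higher in 17 of 19, with a median of 3.49. After Slco1b2 came the bile salt export pump Abcb11 (6.13 ± 0.33), the bile acid ligase Slc27a5 (4.81 ± 0.24), the sterol exporter Abcg5 (4.72 ± 0.29) and the bile salt importer Slc10a1 (4.65 ± 0.40). Slco1a1, a transporter of adult liver, was on the array but above background on no array.

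Cytochrome P450 genes were called higher in 27 of 29, with a median of 4.78. After Cyp3a41a and Cyp4a14 came Cyp3a16 (7.07 ± 0.27), Cyp3a25 (6.26 ± 0.16) and Cyp2c29 (5.70 ± 0.29). The Cyp2 and Cyp3 members share much sequence, so single members are uncertain and the family's count is not made of independent genes. Conjugation enzymes were called higher in 19 of 24 and lower in 1, with a median of 2.45. The sulfotransferase Sult1a1 (6.44 ± 0.29) and the glutathione transferase Gsta3 (5.46 ± 0.25) led, and nicotinamide methyltransferase (Nnmt) was the member called lower, at -2.83 ± 0.23.

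Transcription factors that drive these programmes were called higher in 18 of 21, with a median of 3.44. Foxa2 had 4.70 ± 0.24 and Creb3l3, a membrane-bound factor of fasting metabolism, 4.15 ± 0.30. Hnf4a stood at 4.01 ± 0.23 and the bile acid receptor Nr1h4 at 3.96 ± 0.17. The exceptions were Tbx3 (0.71), Foxa1 (0.26) and Cebpb (-1.07 ± 0.17), a factor used by many dividing and inflamed cells.

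**Figure D2:**
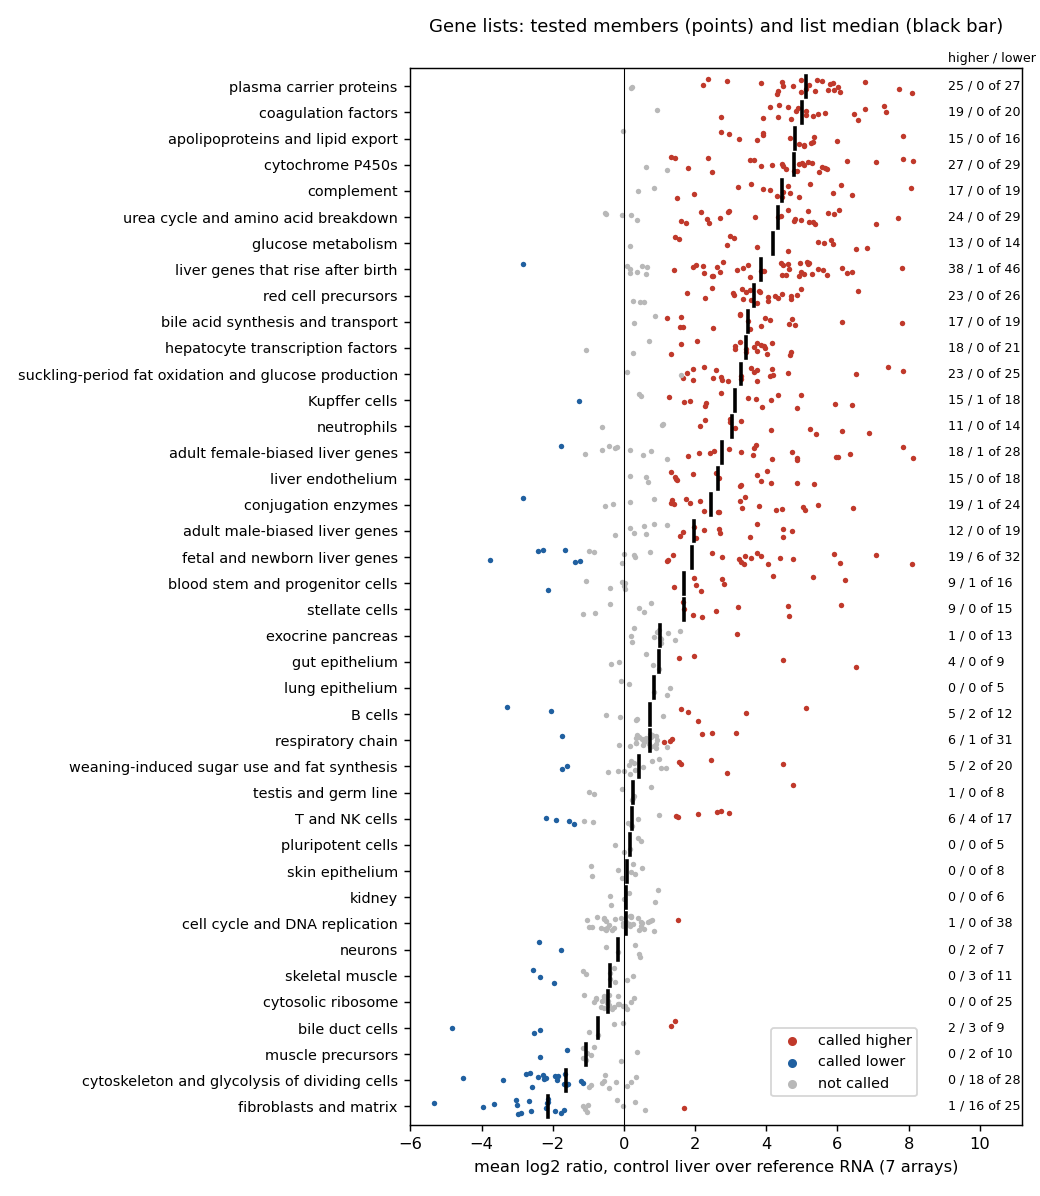
Mean log2 ratio of liver over reference for the tested members (points) of 40 gene lists, ordered by list median (black bar). Red points were called higher, blue points lower and grey points neither, and the numbers give members called higher and lower of those tested. Plasma carriers lie at the top with a median of 5.12, cell cycle genes near 0 at 0.05, and fibroblast and matrix genes at the bottom at -2.13.

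Genes of fetal and newborn liver divided into a high and a low group. Of 32 tested, 19 were called higher and 6 lower, with a median of 1.92. That is 59.4% higher and 18.8% lower, against 11.8% and 7.15% of all genes. Besides Afp, the neonatal P450 Cyp3a16 ranged from 6.74 to 7.50 (median 7.08), with the caution on its near copies given above. Glypican-3 (Gpc3), a surface proteoglycan of fetal liver, ranged from 5.62 to 6.75 (median 6.09), and the imprinted amino acid transporter Slc38a4 from 5.63 to 6.15 (median 5.94). Male 31 was highest for Cyp3a16 and Gpc3, and the lowest array of each gene was a female.

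Imprinted growth genes, which are expressed from a single parental copy and shut down in mouse liver over the weeks after birth, were among the high group. Mest had 4.75 ± 0.17, the cell cycle inhibitor Cdkn1c 4.40 ± 0.15, Plagl1 3.57 ± 0.21 and the non-coding Meg3 3.39 ± 0.15. Igf2, the fetal growth factor, ranged from 3.52 to 4.94 (median 4.06), and its neighbour H19 from 2.81 to 3.93 (median 3.56). Igsf1, a membrane glycoprotein on the X chromosome, had 3.73 ± 0.18, and Bex1 3.85 ± 0.23. Other imprinted members of the list were not called over 2-fold: Dlk1 had -0.05 ± 0.19, Ndn 0.02 ± 0.12 and Zim1 0.29 ± 0.11. Zim1 was called with scanner processed signals (2.03). These 3 were named after their values were seen, and the level in the reference sets each ratio as much as the level in liver does.

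The low group of the fetal list was made of Hmga2 (-3.77 ± 0.27), the glycolytic enzymes Pkm (-2.43 ± 0.11), Aldoa (-2.27 ± 0.14) and Hk2 (-1.66 ± 0.14), and the mRNA-binding proteins Igf2bp1 (-1.38 ± 0.14) and Igf2bp2 (-1.23 ± 0.11). Hmga2 is a chromatin protein of embryonic and dividing cells. With median centring in place of loess, Hk2, Igf2bp1 and Igf2bp2 were no longer called (limma treat adjusted p = 0.060, 0.28 and 0.80), and Igf2bp1 was not called when its probes were averaged (-0.94, adjusted p = 1). Lin28b (1.23 ± 0.22) and Igf2bp3 (1.22 ± 0.16), partners of the fetal growth programme, were called higher by little over 2-fold. Both calls were lost under median centring (adjusted p = 0.072 and 0.42), that of Igf2bp3 also with the authors' value table (1.02, adjusted p = 1), and that of Lin28b also without female 40 (0.060) or male 43 (0.064).

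Genes that rise in liver after birth were also high. Of 46 tested, 38 were called higher and 1 lower, with a median of 3.86. Slco1b2 led, followed by urate oxidase (Uox, 5.92 to 6.88, median 6.48), Cyp3a25, Abcb11, Cyp2c29 (5.31 to 6.23, median 5.73), the carboxylesterase Ces1d (5.61 ± 0.34), Gsta3, Cyp3a11 (5.27 ± 0.29), Acsm1 (5.21 ± 0.31), Bhmt (5.18 ± 0.35) and Dpyd (5.14 ± 0.28). Markers of the mature liver lobule were included: Cyp2e1 had 4.93 ± 0.41, glutamine synthetase (Glul) 3.85 ± 0.14 and Cyp1a2 2.47 ± 0.26. Igf1, the growth hormone-driven growth factor, had 1.94 ± 0.29.

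A smaller set of late genes was not called over 2-fold or was not above background. Growth hormone receptor (Ghr) had 0.64 ± 0.15, Tdo2 0.37 ± 0.17 and the major urinary protein Mup3 0.09 ± 0.07. Tdo2 was called with scanner processed signals (1.77), and its reference signal was above background on 2 of 7 arrays. Mup1, the most abundant urinary protein gene of adult male liver, was above background on no array, as was Slco1a1. Nnmt was the member called lower. The genes in this paragraph other than Nnmt were chosen after their values were seen.

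Genes of the suckling period were called higher in 23 of 25, with a median of 3.28. Cyp4a14, Fabp1 (6.46 to 8.29, median 7.53) and Pck1 (5.61 to 7.09, median 6.57) led. G6pc, which releases glucose, had 4.62 ± 0.32, the thiolase Acaa2 4.18 ± 0.19 and the peroxisomal Ehhadh 4.11 ± 0.28. Ppara, the fatty acid receptor that switches these genes on, had 3.74 ± 0.22. Cyp4a10 (3.64), the ketone body enzyme Bdh1 (3.58) and Acadl (3.29) were also among the 12 largest. Fgf21, a fasting hormone, was not called and was spread widely: 0.11 in female 25, 2.91 in female 40 and 3.04 in male 31, with a median array of 1.42.

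Genes that weaning brings on were mostly not called over 2-fold. Of 20 tested, 5 were called higher, 2 lower and 13 neither, with a median of 0.43. That is 25% higher and 10% lower, against 11.8% and 7.15% of all genes. In the test against no change 14 were higher, where 8158 of all 18691 genes were. The called members were the sugar sensor Mlxipl (4.46 ± 0.22), the pyruvate kinase Pklr (2.91 ± 0.31), the desaturase Fads2 (2.45 ± 0.35), the lipase-like Pnpla3 (at least 3.03-fold, with no reference signal above background) and fructokinase (Khk, 1.56 ± 0.13). Fatty acid synthase (Fasn) had -0.44 ± 0.31, Acly 0.32 ± 0.26, Acaca -0.01 ± 0.16 and Srebf1 0.15 ± 0.29. Stearoyl-CoA desaturase (Scd1) was called lower at -1.75 ± 0.11 with all 7 arrays between -1.90 and -1.59. Malic enzyme (Me1) was called lower at -1.59 ± 0.25, a call lost when its 2 probes (-1.59 and 0.39) were averaged (adjusted p = 1) and under median centring (adjusted p = 0.070). Dividing cell lines make their own fat, so a ratio near 0 does not show a low level in liver. No liver of known age was available beside these, so the lists describe the livers and do not date them.

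**Figure D3:**
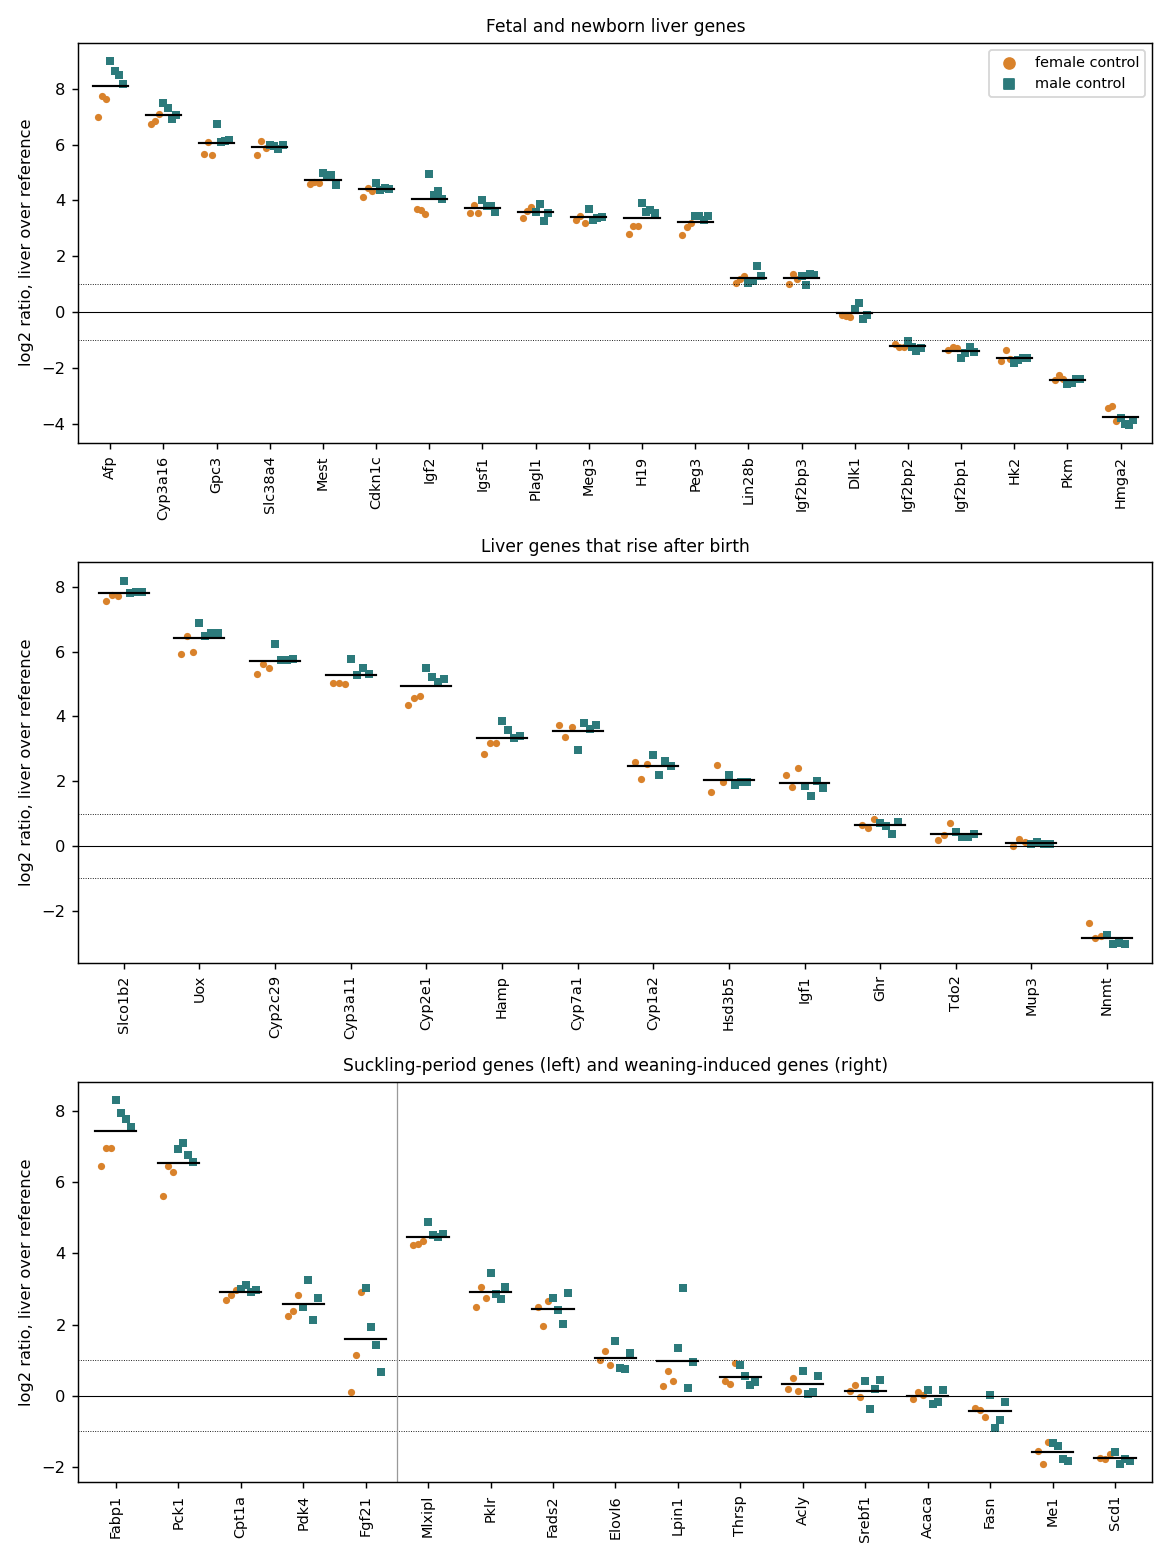
Log2 ratio of liver over reference in each control liver (circles female, squares male; bar, mean of 7) for genes of the 4 stage lists. Afp, Gpc3 and Igf2 stand high in every liver beside Slco1b2, Uox and Pck1, while Mup3, Fasn and Acaca lie near 0 and Scd1 below it. The genes drawn were chosen after their values were seen.

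Genes of red cell formation stood far above the reference in all 7 livers. Of 26 tested, 23 were called higher and none lower, with a median of 3.65. Hemgn, a nuclear protein of erythroid precursors, ranged from 6.29 to 7.00 (median 6.53). Carbonic anhydrase 2 (Car2) had 4.98 ± 0.32, the blood group gene Rhd 4.86 ± 0.26, the transcription factor Nfe2 4.70 ± 0.23 and the membrane exchanger Slc4a1 4.70 ± 0.28. The adult alpha-globin Hba-a1 ranged from 3.31 to 4.27. The 3 not called were the embryonic globins Hbb-y (0.58 ± 0.26), Hbb-bh1 (0.45 ± 0.29) and Hba-x (0.26 ± 0.10), which yolk sac red cells use. The reference was above background on 1 array for Hbb-bh1 and on none for Hba-x. With scanner processed signals both were called higher (Hbb-bh1 2.13, Hba-x 2.24). In whole liver, fewer cells of a type and less RNA per cell cannot be told apart, and blood in the vessels adds its own RNA.

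White cell precursors were mixed. Of 16 stem and progenitor genes 9 were called higher and 1 lower, with a median of 1.69. The granule genes Mpo (6.20 ± 0.27), Ctsg (5.30 ± 0.33) and Ms4a3 (4.18 ± 0.30) of early myeloid cells led, with Hlf, a stem cell factor (2.80 ± 0.20), and Elane (2.76 ± 0.36). The member called lower, Cd34 (-2.14 ± 0.24), is also made by endothelium and fibroblasts. Neutrophil genes were called higher in 11 of 14, with a median of 3.05: S100a9 had 6.89 ± 0.41, Camp 6.13 ± 0.28, S100a8 5.38 ± 0.39, lactoferrin (Ltf) 5.23 ± 0.37 and Ngp 4.15 ± 0.28.

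B cell genes were called higher in 5 of 12 and lower in 2, with a median of 0.74, which ranged from 0.13 with the filter on both channels (3 called higher) to 2.10 with scanner processed signals. Immunoglobulin mu (Ighm) had 5.12 ± 0.31 and the surrogate light chain Vpreb1, which only B cell precursors use, 3.43 ± 0.25. The plasma cell gene Jchain (-3.30 ± 0.23) and Blnk (-2.06 ± 0.27) were lower. T and NK cell genes were called higher in 6 of 17 and lower in 4, with a median of 0.22. For comparison with both lists, 11.8% of all genes were called higher and 7.15% lower. The killer cell genes Gzma (2.95 ± 0.30), Nkg7 (2.74 ± 0.23) and Gzmb (2.60 ± 0.23) were the highest, and the T cell genes Cd5 (-2.19 ± 0.26) and Lat (-1.92 ± 0.07) the lowest. Among genes above background in both channels on all arrays the median turned to -1.13 and 1 gene was called higher.

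Resident cells of the liver sinusoids were represented too. Kupffer cell genes were called higher in 15 of 18 and lower in 1, with a median of 3.12. The shares over all genes were 11.8% higher and 7.15% lower. Cd5l (6.41 ± 0.27), the scavenger receptor Marco (5.94 ± 0.29), the iron exporter Slc40a1 (4.98 ± 0.14), Clec4f (4.87 ± 0.29), a lectin made by Kupffer cells, and Mrc1 (4.34 ± 0.20) led. The lysosomal Cd68, found in most phagocytes, was lower (-1.27 ± 0.16), though not called under median centring. Endothelial genes were called higher in 15 of 18, with a median of 2.63, led by Lyve1 (5.34 ± 0.35) and Clec4g (4.86 ± 0.25) of the sinusoid and Kdr (4.14 ± 0.28), Ehd3 (4.02 ± 0.24) and Cdh5 (3.87 ± 0.15, reference above background on 1 array).

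Stellate cell genes were called higher in 9 of 15, with a median of 1.68. The collectins Colec10 (6.11 ± 0.22) and Colec11 (4.60 ± 0.38), Reln (4.64 ± 0.15) and Ngfr (2.60 ± 0.35) were among the highest. Bile duct genes went the other way in part, with 2 of 9 called higher and 3 lower and a median of -0.72. Among all genes tested, 11.8% were called higher and 7.15% lower. The higher bile duct calls fell to 1 under median centring and when probes were averaged. Osteopontin (Spp1, -4.83 ± 0.34), Krt19 (-2.52 ± 0.17) and Epcam (-2.37 ± 0.19) were lower and Ggt1 (1.44 ± 0.20) was higher. Of the 13 bile duct genes on the array, 4 were above background in no liver. Ducts are a small part of liver, and why these genes were low was not tested.

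**Figure D4:**
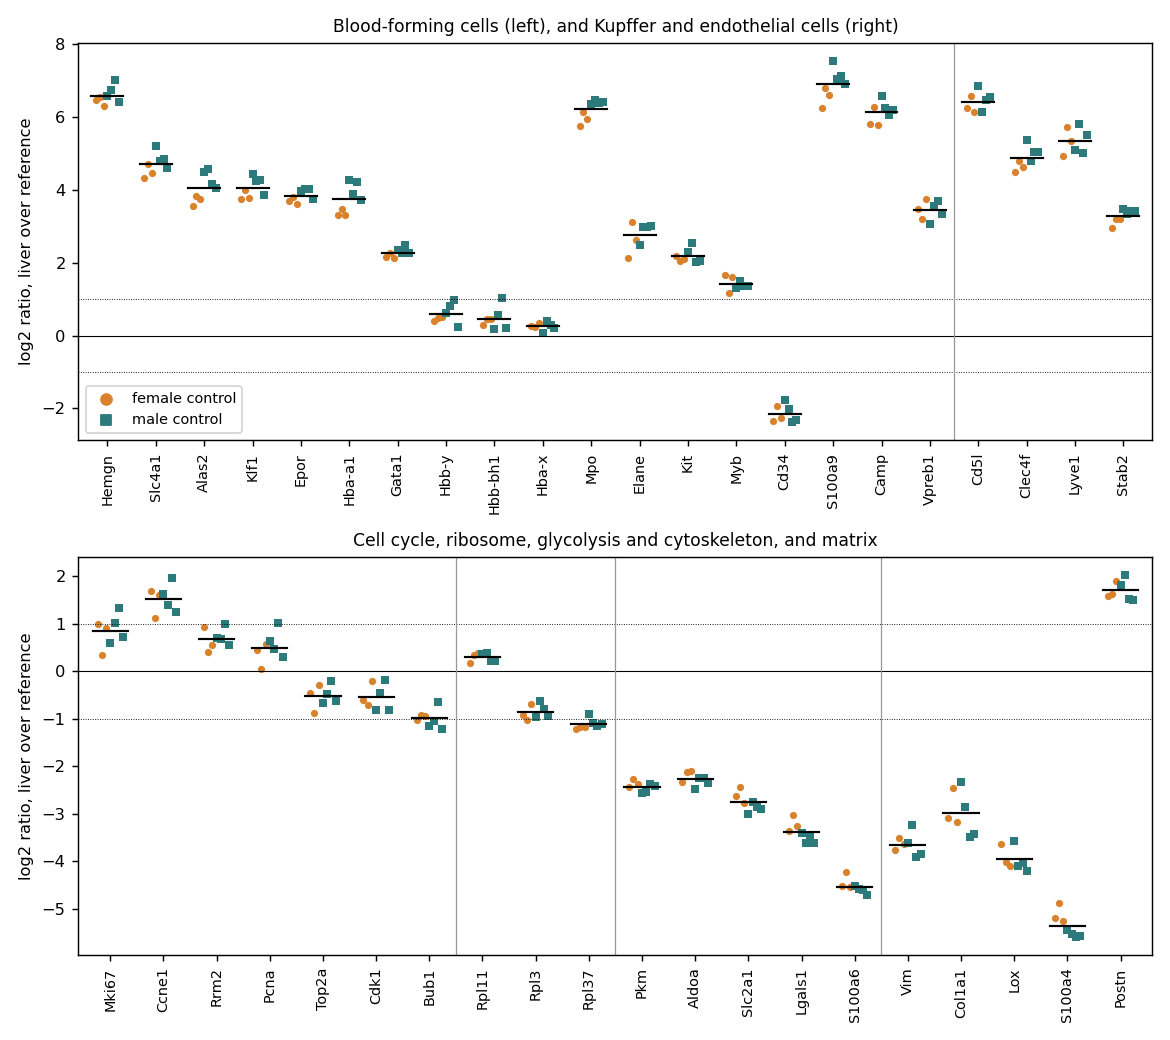
Log2 ratio of liver over reference in each control liver (circles female, squares male; bar, mean of 7). Above, red cell, progenitor, neutrophil and B cell genes and, right of the line, Kupffer and endothelial genes: Hemgn stands at 6.56 and Cd34 at -2.14, with the embryonic globins between 0.26 and 0.58. Below, from left to right, cell cycle, ribosome, glycolysis and cytoskeleton, and matrix genes, where S100a4 lies lowest at -5.35 and Postn stands above 0 at 1.70. The genes drawn were chosen after their values were seen.

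Fibroblast and matrix genes were among those furthest below the reference. S100a4, a calcium-binding protein of fibroblasts and migrating cells, had the lowest ratio among the named genes. It had -5.18, -4.89 and -5.25 in females and -5.44, -5.53, -5.58 and -5.58 in males (mean -5.35 ± 0.26; limma treat adjusted p = 8.43e-12). The interleukin-33 receptor Il1rl1 followed at -4.86 ± 0.32, then Spp1 and S100a6 (-4.53 ± 0.15). All 7 livers lay at a log2 ratio of -4.23 or lower for each of these.

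Also among the 15 lowest were Mela, an antigen of melanoma cells (-4.18 ± 0.21), the collagen Col8a1 (-4.16 ± 0.22), Tmem45a (-4.11 ± 0.33), caveolin (Cav1, -4.07 ± 0.39), Rpl39l (-4.01 ± 0.34), Mycl (-3.97 ± 0.25), Efemp1 (-3.96 ± 0.14), the collagen cross-linker Lox (-3.95 ± 0.24), Gpr83 (-3.91 ± 0.47) and Emp1 (-3.88 ± 0.29). Second probes of Il1rl1 (-1.87), Cav1 (-1.62), Rpl39l (-1.09) and Gpr83 (-1.84) read less far below. Among genes above background in reference on all arrays and in liver on none, Phex was at least 8.02-fold lower, Ott at least 5.87-fold, the muscle caveolar protein Cavin4 at least 4.93-fold and Ifi44l at least 4.64-fold. 1700049E17Rik1 (at least 4.59-fold), Creg2 (4.00), the forebrain homeobox gene Dlx2 (3.84) and Hoatz (3.59) followed.

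Fibroblast and matrix genes were called lower in 16 of 25 and higher in 1, with a median of -2.13, against 7.15% of all genes called lower. After S100a4 and Lox came vimentin (Vim, -3.65 ± 0.23), Ccn1 (-3.03 ± 0.11) and Timp1 (-3.01 ± 0.15). Periostin (Postn), a matrix protein of growing tissue, was the member called higher, at 1.70 ± 0.20. Cytoskeleton and glycolysis genes of dividing cells were called lower in 18 of 28 and higher in none, with a median of -1.64. S100a6, galectin-1 (Lgals1, -3.39 ± 0.21), the glucose transporter Slc2a1 (-2.76 ± 0.19), Pfkp (-2.63 ± 0.21) and the tubulin Tuba1a (-2.59 ± 0.09) were lowest. Slc2a1 and Pfkp are the forms of the transporter and of phosphofructokinase used by dividing cells.

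Genes of cell division were mostly not called over 2-fold against a reference made of dividing cells. Of 38 tested 1 was called higher (Ccne1, cyclin E1, 1.51 ± 0.28) and none lower by limma treat, and the median was 0.05. Over all genes 11.8% were called higher and 7.15% lower. Without the 2-fold minimum, 15 of the 38 were called higher and 15 lower, where 15745 of all 18691 genes differed from 0. Mki67, a marker of cycling cells, had 0.84 ± 0.32 with every array between 0.34 and 1.32, Cdk1 -0.54 ± 0.27, Top2a -0.51 ± 0.23, Bub1 -0.99 ± 0.19 and Gins2 -1.03 ± 0.18. Mki67, Cdk1 and Top2a were named after their values were seen. The list median ranged from -0.26 to 0.19 over the processing alternatives, so its sign is not fixed, and the Ccne1 call was lost when its probes were averaged (1.24, adjusted p = 0.062).

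Ribosomal protein genes lay slightly below the reference. None of 25 was called by limma treat, and the median was -0.46, with Rpl37 lowest at -1.12 ± 0.11 and then Rpl3 at -0.85 ± 0.15. Up to 8 were called lower under other settings that kept the 2-fold minimum, and the median stayed between -1.02 and -0.23. The test against no change called 20 lower and 2 higher, where 15745 of all 18691 genes differed from 0. Respiratory chain genes lay slightly above, with a median of 0.72 and with 6 of 31 called higher and 1 lower, against 11.8% and 7.15% of all genes. The higher calls fell to 3 under median centring and with the authors' value table, where the median was 0.23. The electron carriers that serve fat oxidation were highest: Etfdh had 3.15 ± 0.28, Etfb 2.46 ± 0.11 and Etfa 2.18 ± 0.23. Cox7c was lower at -1.75 ± 0.42, a call lost under median centring.

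Markers of other tissues were also read. A call rests on the mean of 7 arrays, so it cannot exclude tissue carried in only a few livers. Over all genes tested, 11.8% were called higher and 7.15% lower. No skeletal muscle, muscle precursor, neuron, kidney, lung, skin or pluripotent cell gene was called higher, of 11, 10, 7, 6, 5, 8 and 5 tested. Other settings that kept the 2-fold minimum called up to 3 lung, 2 pluripotent cell, 1 neuron, 1 kidney and 1 skin gene higher. The surfactant genes Sftpd (at least 2.39-fold higher) and Sftpa1 (at least 2.30-fold), with no reference signal above background, were called with the smaller offset (log2 1.96 and 1.81) and with the authors' value table (1.41 and 1.34). They were named after their values were seen, and their source was not tested. The skeletal muscle and muscle precursor lists had 3 and 2 genes called lower, led by Actn3 (-2.55 ± 0.37) and Chrna1 (-2.35 ± 0.42). Both counts became 5 without female 25. Across settings that kept the 2-fold minimum they ranged from 3 to 6 and from 1 to 8. Hsd3b1, a steroid enzyme on the testis list, was higher at 4.75 ± 0.20, and 4 of 9 gut genes were higher, led by the fatty acid carrier Fabp2 (6.53 ± 0.40) and Tff3 (4.48 ± 0.23), both of which liver can also express. Lactase (Lct), a gut gene that was not called, had 2.87 in male 31 and 1.33 in male 33. The other livers lay between 0.17 and 0.48 for Lct, which was named after its values were seen. The part of these gut genes in contamination by gut was not tested.

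Exocrine pancreas genes separated 2 of the 7 livers from the rest. The elastase Cela3b had 5.53 in male 31 and 4.01 in male 33, and between -0.02 and 0.21 in the other 5 livers. The trypsin Try5 had 4.43 and 3.07 against -0.19 to 0.24, colipase (Clps) 4.12 and 3.35 against 0.12 to 0.32, and the lipase Cel 3.79 and 2.21 against 0.01 to 0.31. The list median was 3.67 and 2.30 in these animals and 0.11 to 0.26 in the others, over 13 tested of 20 genes on the array. Pnlip, Amy2a5 and Ptf1a were above background on no array. Pnliprp1 was the list's only call (3.18 ± 1.17), and it stayed called without both males (mean 2.55), when the list median was 0.21. The 15 highest and 15 lowest genes do not include digestive zymogens, and without both males 3283 of the 3538 calls were kept among 3301.

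Sex differences were few beyond the sex chromosomes. Male minus female passed limma's test in 5 of 18691 genes (0.0268%), with 910 at an unadjusted p under 0.05, where chance alone gives about 935. Xist, which silences an X chromosome in females, had 1.69, 2.08 and 1.85 in females and -5.66 to -6.10 in males (difference -7.69, adjusted p = 5.87e-09). Its antisense partner Tsix differed by -2.10, a call lost under median centring (adjusted p = 0.30). The Y-linked Eif2s3y and Ddx3y differed by 4.64 and 3.56, with 2.83 to 3.07 and 1.61 to 1.98 in males. All 7 labels fitted these genes, and the differences were as large within each of the 2 slides that held both sexes (Xist -7.90 and -7.96; Ddx3y 3.42 and 3.97).

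The fifth gene, Fgg, had 6.59, 6.76 and 6.95 in females and 7.64 to 8.06 in males (difference 1.04, adjusted p = 0.044). By channel, male minus female was 0.01 in liver and -1.03 in the reference RNA, which is the same in both sexes. Leaving out any single array ended the call, with adjusted p from 0.051 to 0.26. The same pattern held by channel for the plasma carriers as a group: 24 of 27 had a higher ratio in males with a median of 0.58, of which 0.09 was in liver and -0.53 in reference.

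Many probes for genes that differ between adult male and female livers gave signal in both sexes. The caution on near copies given for P450 genes applies to both sex lists, since cross-matches between family members were not checked. Of 19 male-biased genes tested, 12 were called higher than the reference and none differed between the sexes by limma, with a median male minus female of 0.02. Cyp2d9 had 4.46 ± 0.36, Cyp4a12a 3.54 ± 0.21 and Hsd3b5 2.02 ± 0.26 over both sexes, and Cyp7b1, with no reference signal above background, was at least 2.95-fold higher. Ugt2b38 (4.73 ± 0.25), Ces2a (3.75 ± 0.26), Nudt7 (2.69 ± 0.20), Selenbp2 (2.66 ± 0.16) and C6 (1.98 ± 0.27) were also high. Mup1, Slco1a1 and Serpina12, further male genes, were above background on no array.

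Of 28 female-biased genes, 18 were called higher and 1 lower (Vldlr, -1.78 ± 0.38), none differed between the sexes, and the median male minus female was 0.12. Cyp3a41a and Cyp4a14 led in both sexes, with the bile acid sulfotransferase Sult2a2 (6.36 ± 0.25), Cyp2c40 (6.01 ± 0.42), Cyp3a44 (5.96 ± 0.27), Cyp2a4 (4.88 ± 0.77), Cyp2b9 (4.87 ± 0.31), Hao2 (4.73 ± 0.34, reference above background on 2 arrays) and Cyp2b13 (4.15 ± 0.25). Cyp2a4 varied most, from 4.03 to 5.93. With 3 females and 4 males, a difference that missed the threshold does not show that the sexes were alike.

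**Figure D5:**
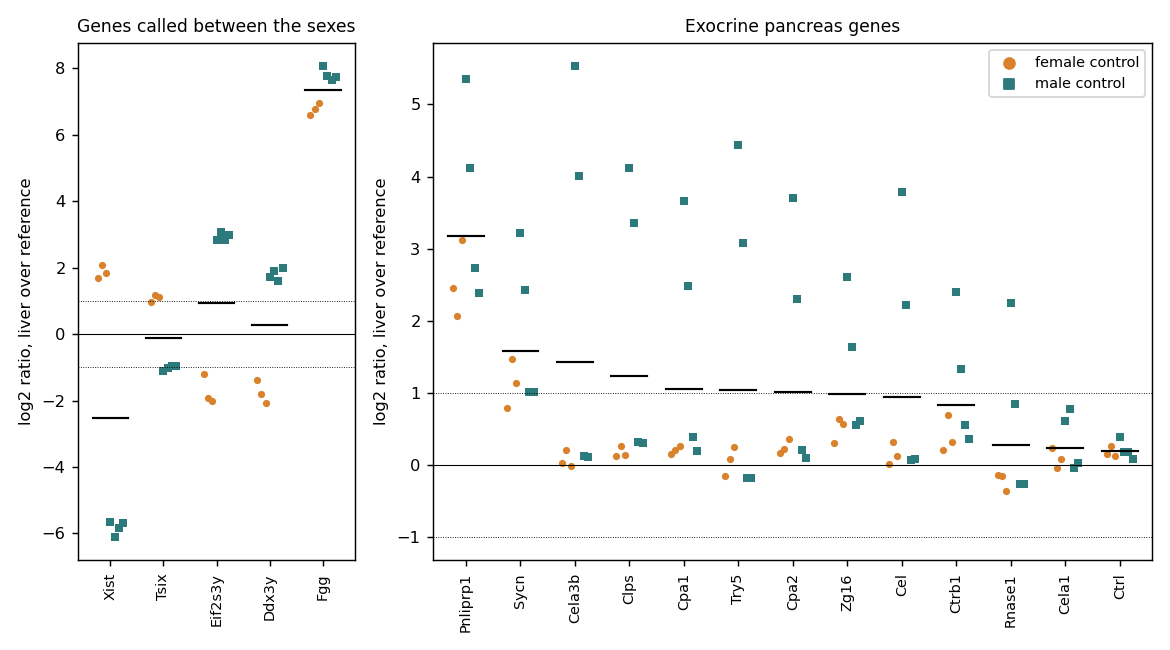
Log2 ratio of liver over reference in each control liver (circles female, squares male; bar, mean of all 7). Left, the 5 genes called between the sexes, with Xist from 1.69 to 2.08 in females and -6.10 to -5.66 in males. Right, the 13 exocrine pancreas genes tested: males 31 and 33 are the high pair, with Cela3b at 5.53 and 4.01 and the other livers near 0.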

How the data were processed

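The series holds 16 two-colour Agilent arrays, of which the 7 control arrays were analysed. Spot intensity was deposited by the authors as scanner output (Feature Extraction 9.5.3.1, per the labels' protocols), with no normalization applied to the mean and background signals used here. The authors' deposited value table holds log2 red over green: its columns correlated at 0.984 to 0.993 with the ratios computed here, and its 9 columns of other arrays were not used. The label fields and the labelling protocol disagree on the dyes, and liver markers and sex-linked genes were checked to lie in red.

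Mean signals were corrected by normexp (offset 50) and normalized by loess within each array with limma 3.58.1 in R 4.3.3. Control spots and outliers were left out, and of 43379 spots not controls, probes well above background in either channel on at least 4 arrays were tested, the brightest probe standing for a gene. Liver over reference was tested with limma treat against 2-fold, two-sided, and male minus female with limma's moderated test, each with Benjamini-Hochberg adjustment at 0.05 over all 18691 genes. The script was tested on simulated data. Genes were named through RefSeq accessions and synonyms.

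Named are the 4 liver markers, the 15 highest and 15 lowest genes measured in both channels, the 8 largest bounds each way, up to 5 members of each list (12 for stage and sex lists) by size, and the genes called between the sexes. Other list members, such as exceptions and uncalled genes, were named after their values were seen. The members and lists were chosen with earlier results of these data known. The alternatives changed the background correction, normalization, filter, probe rule, test, weights, slide block and the arrays included. Some genes that the naming rule selects are not reported here.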

Additional observations from a re-analysis of the deposited data

Results flagged for a closer look

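Among 290 genes and list medians of the report, 26 had 1 liver far from the other 6, where chance flags about 1 in 20. Female 25 stood apart most often. Its log2 ratios were nearest to the reference for genes low in liver: Phex -2.33 (others -3.37 to -3.16), Creg2 -1.25 (-2.40 to -2.15), Ifi44l -1.50 (-2.69 to -2.34), Cavin4 -1.53 (-2.63 to -2.30), Hoatz -1.32 (-2.32 to -1.90), Actn3 -1.79 (-2.81 to -2.40), Cd5 -1.67 (-2.50 to -2.15) and Nnmt -2.37 (-3.04 to -2.76). Phex, Creg2, Ifi44l, Cavin4 and Hoatz were above background in liver on no array, so their ratios do not measure a liver level. The muscle precursor median was also nearest to the reference in female 25, at -0.64 against -1.20 to -1.08. Its Cyp7b1, a bile acid and steroid hydroxylase, was the lowest at 0.96 against 1.62 to 1.77.

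Male 31 was the highest for Slco1b2 (8.19), Ppara (4.18), Tff3 (4.96), Rpl37 (-0.90) and the gut epithelium median (2.06 against 0.56 to 1.16). Male 33 was the highest for Cyp4a12a (3.99) and Gpt (0.48) and the lowest for Gzmb (2.12). Female 35 was the highest for Hk2 (-1.37), S100a6 (-4.23) and the pluripotent cell median (0.52), and the lowest for the cytoskeleton and glycolysis median (-1.70 against -1.64 to -1.60). Female 40 was the highest for Blnk (-1.53) and the B cell median (1.42 against 0.52 to 0.84) and male 41 the highest for Lin28b (1.66). The surfactant gene Sftpd was highest in female 40 at 2.02, against 1.01 to 1.37.

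The sexes differed in 5 genes by limma's test of male minus female: Xist by -7.69, Tsix by -2.10, Eif2s3y by 4.64, Ddx3y by 3.56 and Fgg by 1.04, the last lying in the reference channel.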

How the results depend on the processing

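No paired analysis was possible because males and females share no replicate number in the labels, though 2 slides each hold a female and a male, whose differences the report gives. No called gene named in the report changed sign, but over all 3538 calls 3 did with scanner processed signals, 4 with the filter on both channels and 2 with probes averaged. List medians changed sign for T and NK cells, cell cycle, kidney, skin and pluripotent cells. Calls numbered 3385 to 3668 when 1 array was left out, of which 2125 to 2259 were higher and 1260 to 1409 lower, with 61.6% to 63.0% higher and 4 to 6 sex calls. Median centring gave 871 genes called lower and 3 sex calls. Scanner processed signals gave 6104 calls, 2971 of them lower, and a higher share of 51.3%, against 51.9% with the authors' value table. Requiring both channels above background on all arrays left 1 sex call. A test against no change called 15745 genes, 8158 higher and 7587 lower, a higher share of 51.8%. The slide block correlation was 0.027 and 3523 of 3538 calls were kept. Causes were not tested. Genes near background have compressed ratios.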
